A study of Homo sapiens with 6 samples.

Results

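MYC, MAX and 7 further members of their transcription factor network (MXD1, MXD3, MXD4, MXI1, MNT, MLX and MGA) were followed after knockdown of PNO1 in HCT116, an epithelial cell line from a human colorectal carcinoma. The genes were taken by name: every probe set of the array whose only gene symbol was one of these 9 was used, which gave 39 probe sets, among 49293 probe sets and 18132 genes in all. Cells were collected 72 h after transduction with a lentivirus carrying a short hairpin RNA directed at PNO1 (sh-PNO1, 3 arrays) or a control hairpin (sh-Ctrl, 3 arrays), and 100 ng of total RNA per sample was labelled and hybridised to Affymetrix expression arrays. Both groups were transduced, and PNO1 is a nucleolar factor needed for maturation of the small ribosomal subunit. The labels name no second hairpin against PNO1, so loss of PNO1 and other effects of its hairpin cannot be told apart, and they do not say whether the replicates were separate cultures, so the spread behind the p-values may be only technical. In RNA from whole cultures a change in the number of cells that express a gene and a change in RNA per cell cannot be told apart.

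MYC is a basic helix-loop-helix zipper (bHLH-zipper) protein that binds DNA only as a dimer with MAX, mostly at E-boxes, and recruits coactivators to genes of growth, ribosome synthesis and metabolism. MAX also pairs with the MXD proteins (MXD1, MXI1, MXD3 and MXD4), with MNT and with MGA, and these dimers bind the same sites and recruit co-repressors, so the balance of partners is a classical switch between proliferation and differentiation or arrest. MLX is a MAX-like hub that joins a subset of the MXD proteins, MNT and the glucose-responsive factors MLXIP and MLXIPL. In colorectal cells MYC is a well known target of Wnt and beta-catenin signalling, which an activating CTNNB1 mutation drives in HCT116.

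The PNO1 transcript was lower in every knockdown array. Its brightest probe set had intensities of 104.7, 108.2 and 104.96 in sh-PNO1, against 535, 535 and 532 in sh-Ctrl, or 19.8% of the control level (−2.33 ± 0.04 SE on the log2 scale, adjusted p = 3.32e-07 in limma, 3 of 3 probe sets lower). The exact permutation test, two-sided, gave p = 0.1, its minimum for groups of 3. The median intensity was 25.6 to 25.9 on every array. The epithelial markers EPCAM, KRT8, KRT18, KRT19 and CDH1 had group means of 232 to 3000. Their summed intensity was 9427 to 9780 in sh-PNO1 and 8670 to 9079 in sh-Ctrl. KRT19 (log2 fold change 0.37, limma adjusted p = 0.00056) and CDH1 (0.31, adjusted p = 0.0022) were higher in sh-PNO1. EPCAM (−0.07), KRT8 (0.10) and KRT18 (−0.03) had adjusted p of 0.199 to 0.613. The 4 intestinal markers had group means below the epithelial ones (4.38 to 67.2). The brightest of them was CDX2, at the 68.7th percentile of all probe sets. The 10 leukocyte, endothelial and fibroblast markers were also below the epithelial ones (3.65 to 37.5). Their summed intensities, in that order, were 33.2 to 36.1, 67.6 to 68.9 and 51.4 to 55.7 in sh-PNO1. In sh-Ctrl these sums were 31.2 to 31.9, 61.95 to 66.5 and 50.6 to 53.1. Among signs of RNA quality, the 3' minus 5' log2 difference of ACTB was 2.25 on the sh-PNO1 replicate 2 array, against 1.73 to 1.87 on the other 5 arrays, and that of GAPDH was −0.08 to −0.06 in sh-PNO1 and −0.03 to −0.01 in sh-Ctrl. Their part in the results below was not tested.

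At their brightest probe sets MAX, MLX and 3 of the 4 MXD genes passed as higher, and MYC, MNT and MGA did not pass. Only MAX, MXD1 and MXD4 also passed with any 1 array left out. The 95% interval of MYC (0.002 to 0.23) overlapped those of MLX (0.07 to 0.28) and MXI1 (0.08 to 0.30). Differences between genes were not tested. At an adjusted p under 0.05 in limma, fitted over all probe sets, 19 of the 39 probe sets passed (48.7%), 18 higher in sh-PNO1 (46.2%) and 1 lower (2.56%). Over all probe sets 28% passed, 14.8% higher and 13.2% lower. The median log2 fold change was 0.17 over the 39 probe sets and 0.01 over all probe sets. Probe sets of one gene share a transcript and are not independent, so each gene was also read at its brightest probe set. There 6 of the 9 genes passed, 5 higher (MXD4, MXD1, MAX, MXI1 and MLX) and 1 lower (MXD3), against 31.6% of all genes. In 23 of the 39 probe sets (59.0%) the arrays of the groups did not overlap, which was so for 40.2% of all probe sets. No probe set of the network reached a 2-fold change; 0.911% of all probe sets passed with at least that change, so none among 39 is near the background.

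**Figure D1:**
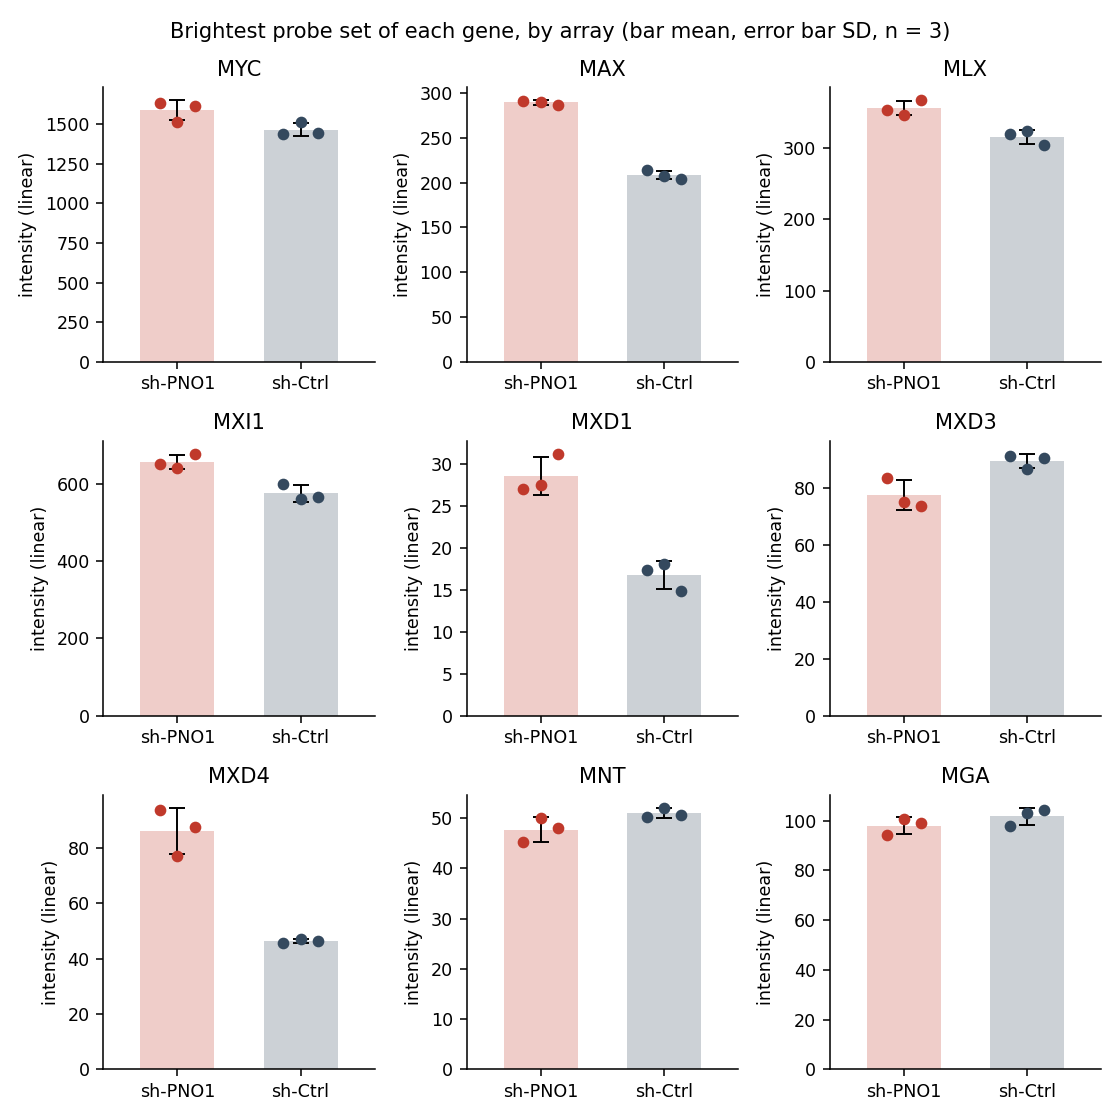
Linear intensity of the brightest probe set of each gene on each array (points), with the mean (bar) and SD (error bar, n = 3), sh-PNO1 left of sh-Ctrl. The arrays of the groups stand far apart for MAX, MXD1 and MXD4, while those of MYC nearly touch and those of MGA overlap.

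MYC, the activator of the network, changed little and did not pass. Its only probe set (11745021_a_at) had intensities of 1632, 1515.4 and 1615 on the sh-PNO1 arrays, against 1439, 1514.8 and 1443 on the sh-Ctrl arrays. The lowest sh-PNO1 array thus stood just above the highest sh-Ctrl array, and both were replicate 2. The means were 1588 ± 63.1 in sh-PNO1 and 1465 ± 42.8 in sh-Ctrl (SD, n = 3 each), a log2 fold change of 0.12 ± 0.05 SE with a 95% interval of 0.002 to 0.23. The limma adjusted p was 0.126 (unadjusted p = 0.0473). MYC passed under 1 of 18 alternatives, that with an intensity trend in the variance and a robust prior (adjusted p = 0.0238). MYC protein was not measured.

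MAX, the obligate partner of MYC and a partner of the MXD proteins, rose on its brightest probe sets. The brightest one (11740748_s_at) had intensities of 292, 290.2 and 287 in sh-PNO1, against 214, 208 and 204 in sh-Ctrl. The gap between the groups was many times the spread within them. Means were 289.6 ± 2.37 in sh-PNO1 and 209 ± 4.69 in sh-Ctrl (SD, n = 3 each), a log2 fold change of 0.47 ± 0.04 SE (adjusted p = 0.000115). The next 2 in brightness rose by 0.41 and 0.51. Of the 12 MAX probe sets 4 were higher and 8 did not pass. The other one that passed was dimmer (38.0 ± 2.06 in sh-PNO1 and 31.5 ± 2.99 in sh-Ctrl, SD, n = 3 each), rose by 0.27, and did not pass without sh-PNO1 replicate 1, sh-PNO1 replicate 3, sh-Ctrl replicate 2 or sh-Ctrl replicate 3 (adjusted p of 0.0813 to 0.109). The 8 that did not pass had means of at most 38.4 in sh-PNO1 and 33.8 in sh-Ctrl, and log2 fold changes of −0.13 to 0.24. With all 12 averaged MAX still passed, at a log2 fold change of 0.17 (adjusted p = 0.00943).

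MLX, the hub of the parallel branch, was higher on all 6 of its probe sets, and on each of them every sh-PNO1 array lay above every sh-Ctrl array. The brightest probe set (11750059_a_at) had intensities of 354, 347 and 367 in sh-PNO1, against 320, 324 and 304 in sh-Ctrl. Its log2 fold change of 0.17 ± 0.05 SE (adjusted p = 0.0267) was the smallest of the 6. The probe set next in brightness read 379, 373 and 382 in sh-PNO1, against 294, 281 and 273 in sh-Ctrl, a log2 fold change of 0.42 ± 0.05 SE (adjusted p = 0.000326). The 95% intervals of these 2 probe sets, 0.07 to 0.28 and 0.32 to 0.53, did not overlap, and their difference was not tested. The other 4 rose by 0.28 to 0.41. The call on the brightest probe set was lost without sh-PNO1 replicate 1, sh-PNO1 replicate 3, sh-Ctrl replicate 1 or sh-Ctrl replicate 3 (adjusted p of 0.054 to 0.0817), and that of one dimmer probe set (log2 fold change 0.36) without sh-PNO1 replicate 1 or sh-Ctrl replicate 2. With all 6 averaged the gene rose by 0.32 (adjusted p = 0.000303).

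**Figure D2:**
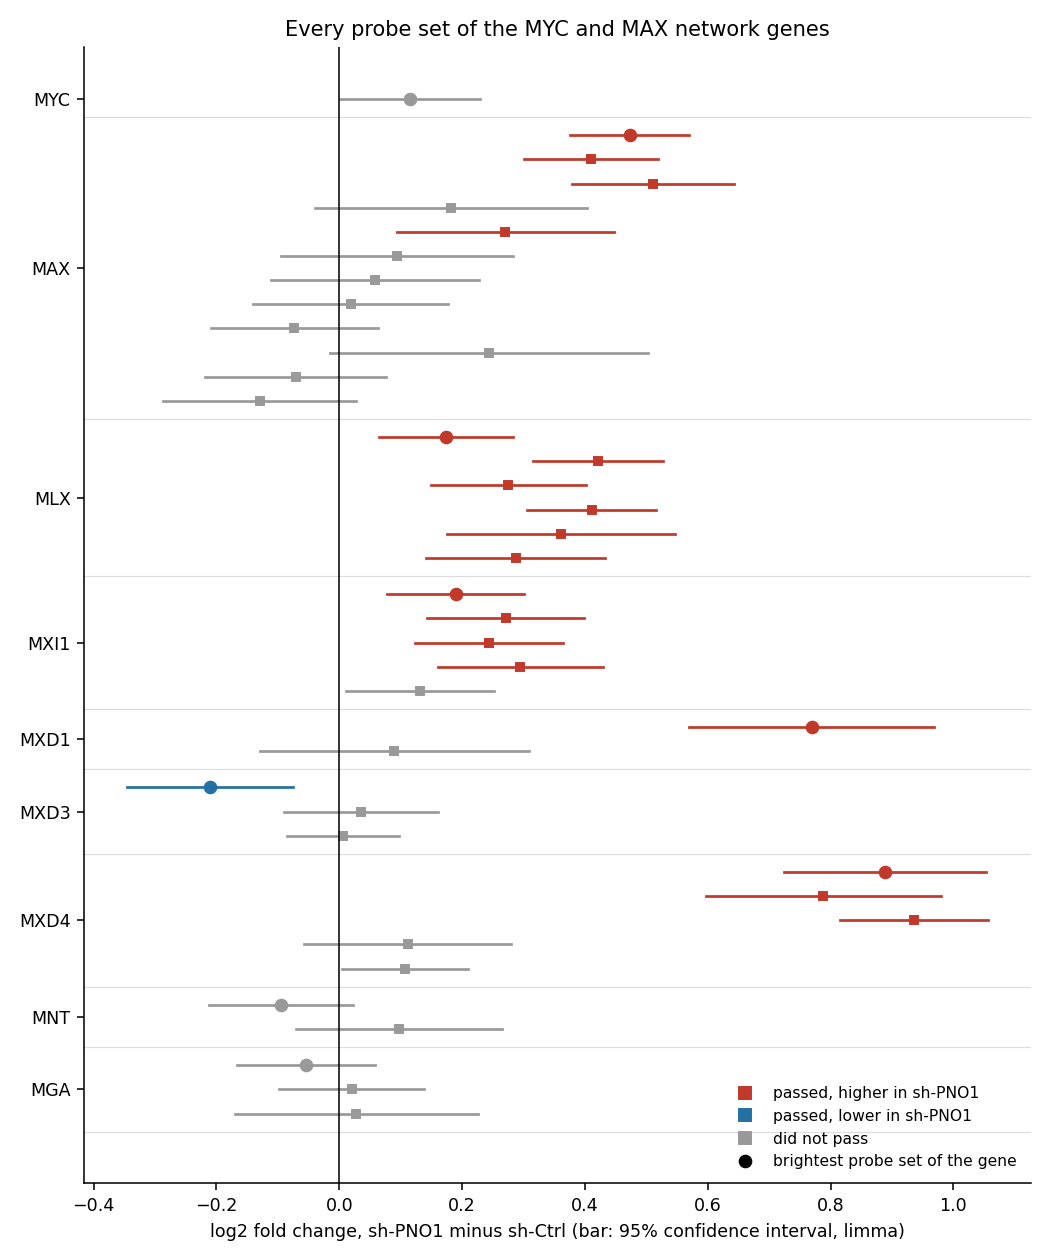
Log2 fold change (sh-PNO1 minus sh-Ctrl, horizontal axis) of all 39 probe sets with the 95% confidence interval from limma, genes from top to bottom and, within a gene, probe sets from bright to dim. MLX and MXI1 probe sets lie above 0 throughout, whereas MAX, MXD1 and MXD4 each hold probe sets that rose beside others close to 0.

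The MXD proteins are the transcriptional repressors of the network and are induced in many cells as they stop dividing. MXD4 had the largest change of the 9 genes. Its brightest probe set (11763312_at) read 93.7, 77.1 and 87.6 in sh-PNO1, against 45.7, 47.1 and 46.2 in sh-Ctrl, a log2 fold change of 0.89 ± 0.07 SE (1.85-fold, adjusted p = 6.97e-05). The second read 64.6, 61.2 and 70.04 in sh-PNO1, against 38.3, 33.8 and 41.4 in sh-Ctrl, a log2 fold change of 0.79 ± 0.08 SE. Another rose by 0.94 ± 0.05 SE (adjusted p = 1.33e-05), with 61.1, 61.8 and 67.5 in sh-PNO1, against 32.99, 33.8 and 32.6 in sh-Ctrl. All 3 kept the groups wide apart. The remaining 2 did not pass, at 0.11 each (95% intervals −0.06 to 0.28 and 0.005 to 0.21). They read 38.8, 33.9 and 40.4 and 29.97, 29.2 and 31.1 in sh-PNO1, against 33.1, 36.3 and 35.1 and 28.3, 27.6 and 27.9 in sh-Ctrl. The 95% intervals of these 2 did not overlap those of the 3 that rose, and the difference was not tested. Averaged over its 5 probe sets MXD4 rose by 0.57 (adjusted p = 4.80e-05). Of all genes 1.54% changed by more than MXD4 in either direction at the brightest probe set.

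MXD1, the founding member of the family, was second in size of change. Its brightest probe set (11719249_at) read 27.04, 27.6 and 31.2 in sh-PNO1, against 17.4, 18.1 and 14.9 in sh-Ctrl, with no overlap between the groups. The means of 28.6 ± 2.28 in sh-PNO1 and 16.8 ± 1.70 in sh-Ctrl (SD, n = 3 each) gave a log2 fold change of 0.77 ± 0.09 SE (1.70-fold, adjusted p = 0.000382). These intensities are low for the array, at the 46th percentile of all probe sets, and the fold depended on what was added to the intensity before the logarithm: with 16 added it was 0.44. The second MXD1 probe set was dimmer still (7.18 ± 0.92 in sh-PNO1 and 6.72 ± 0.51 in sh-Ctrl, SD, n = 3 each) and stood at 0.09 (adjusted p = 0.536). With both averaged the gene rose by 0.43 (adjusted p = 0.000144).

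MXI1, also called MXD2, rose by a small amount. Its brightest probe set (11730498_s_at) read 651, 641 and 677 in sh-PNO1, against 601, 560.0 and 566 in sh-Ctrl, a log2 fold change of 0.19 ± 0.05 SE (adjusted p = 0.0204). Of its 5 probe sets 4 were higher, by 0.19 to 0.29, and on all 5 the groups did not overlap. The call on the brightest one was lost without sh-PNO1 replicate 3, sh-Ctrl replicate 2 or sh-Ctrl replicate 3 (adjusted p of 0.0647 to 0.0714).

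MXD3, which in mouse is, unlike the other MXD genes, expressed in proliferating cells at S phase, was the only member that passed as lower. The brightest of its 3 probe sets (11725748_a_at) read 83.4, 74.9 and 73.7 in sh-PNO1, against 91.1, 86.4 and 90.5 in sh-Ctrl, a log2 fold change of −0.21 ± 0.06 SE (adjusted p = 0.0301). The groups were apart but close. The call was lost without any 1 array other than sh-PNO1 replicate 1 (adjusted p of 0.0541 to 0.0976), and with the 3 probe sets averaged (log2 fold change −0.06, adjusted p = 0.266). The other 2 probe sets stood at 0.04 and 0.01, and on the dimmest of them the same intensity of 9.99 was deposited for 5 of the 6 arrays. Both probe sets assigned to MXD3 together with its neighbour RAB24, which were not counted because the rule takes single symbols, were lower on all sh-PNO1 arrays (−0.26, adjusted p = 0.00259, and −0.14, adjusted p = 0.13).

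MNT, a broadly expressed repressor that antagonises MYC in cycling cells, and MGA, a large MAX partner that also carries a T-box domain and scaffolds a Polycomb complex, did not pass on any probe set. The brightest MNT probe set (11744056_at) read 45.2, 50.02 and 48.02 in sh-PNO1, against 50.2, 52.1 and 50.6 in sh-Ctrl (log2 fold change −0.10, 95% interval −0.21 to 0.02, adjusted p = 0.215). On this probe set every sh-PNO1 array lay below every sh-Ctrl array. The other MNT probe set pointed the other way (0.10, adjusted p = 0.376), and its groups overlapped. The brightest MGA probe set (11758283_s_at) read 94.3, 100.7 and 99.1 in sh-PNO1, against 97.9, 103.2 and 104.2 in sh-Ctrl (−0.05, 95% interval −0.17 to 0.06, adjusted p = 0.461), and the other 2 stood at 0.02 and 0.03. The groups overlapped on all 3 MGA probe sets.

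Background signal limited what dim probe sets could show. The 23 background probe sets of the array, which match no transcript and span a range of GC content, had mean intensities of 2.53 to 773 with a median of 4.24. All 39 network probe sets were brighter than that median, and only the MYC probe set was brighter than all 23. The GC content of the network's probes was not used here, so how far each of the other probe sets stood above its own background is unknown, and folds of dim ones can be understated.

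Of 18 alternatives, 17 repeated the fit with another setting and kept the threshold of 0.05. In these MAX, MXD1 and MXD4 passed as higher in all 17, MXI1 in 14, MLX in 12 and MXD3 as lower in 11, while MYC passed in 1 and neither MNT nor MGA in any. The other alternative was a threshold of 0.01 on the adjusted p as reported, at which MAX, MXD1 and MXD4 passed and MXI1, MLX and MXD3 did not. The number of the 9 genes that passed was 3 without sh-PNO1 replicate 3 and 3 without sh-Ctrl replicate 3, these being the same MAX, MXD1 and MXD4.

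**Figure D3:**
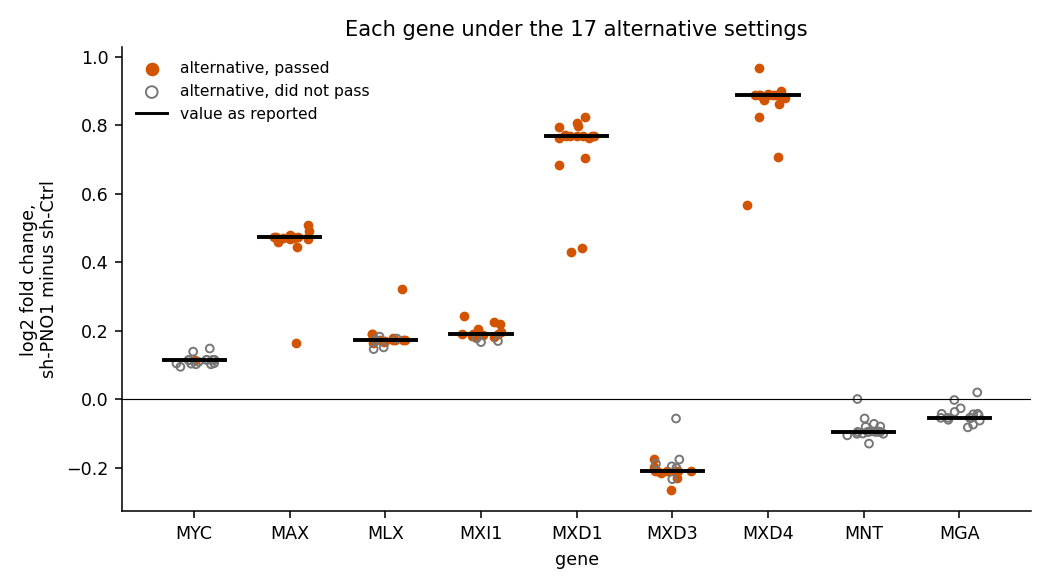
Log2 fold change (sh-PNO1 minus sh-Ctrl, vertical axis) of each gene at its brightest probe set as reported (black line) and under the 17 alternative settings that repeated the fit (points; filled where the adjusted p was under 0.05, open where it was not); the stricter threshold of 0.01, which leaves the values as reported and at which MXI1, MLX and MXD3 did not pass, is not drawn. MXD4, MXD1 and MAX stayed above 0 and passed in all 17, while the points of MNT and MGA stayed near 0 and are all open.

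The promoters of 8 of the 9 genes were matched by symbol in RefSeq (GRCh38.p14), in windows of 250 bases before to 50 after each listed start, 13 windows in all. MYC had no window and was not searched. The E-box CACGTG, the preferred site of MAX dimers and its own reverse complement, was found in 1 window each of MXD4, MLX and MNT, 3 of the 13 windows, and in 7.26% of all 35116 windows. It began 238 bases before the start in MXD4, 193 in MNT and 50 in MLX. The variant CACGCG, searched on both strands, was found in 1 window each of MXD3, MXI1 and MGA, and in 11.4% of all windows. Neither was found in the MAX or MXD1 windows. A match describes these letters only, and the genes with CACGTG were 2 that rose and 1 that did not pass. The 5 windows shown are those of the 3 genes with CACGTG, of MXD1 as the second largest increase and of MXD3, which passed as lower. Capitals mark CACGTG, or CACGCG read on either strand. The windows, each 5′ to 3′ on the strand of its gene, are chr4:2262060-2262359 on the minus strand for MXD4, chr17:42566850-42567149 on the plus strand for MLX, chr17:2401011-2401310 on the minus strand for MNT, chr2:69914859-69915158 on the plus strand for MXD1 and chr5:177312703-177313002 on the minus strand for MXD3.
MXD4: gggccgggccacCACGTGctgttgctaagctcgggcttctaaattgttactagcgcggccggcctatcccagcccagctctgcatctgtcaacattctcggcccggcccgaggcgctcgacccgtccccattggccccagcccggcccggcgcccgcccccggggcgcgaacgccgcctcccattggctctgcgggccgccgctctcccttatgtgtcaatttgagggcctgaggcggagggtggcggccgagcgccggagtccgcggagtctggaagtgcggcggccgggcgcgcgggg
MLX: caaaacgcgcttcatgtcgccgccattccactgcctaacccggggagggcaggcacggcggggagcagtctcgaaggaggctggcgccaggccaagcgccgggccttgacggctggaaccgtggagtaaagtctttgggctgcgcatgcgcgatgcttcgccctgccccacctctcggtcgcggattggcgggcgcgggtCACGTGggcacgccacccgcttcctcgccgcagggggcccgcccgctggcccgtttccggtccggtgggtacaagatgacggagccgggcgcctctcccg
MNT: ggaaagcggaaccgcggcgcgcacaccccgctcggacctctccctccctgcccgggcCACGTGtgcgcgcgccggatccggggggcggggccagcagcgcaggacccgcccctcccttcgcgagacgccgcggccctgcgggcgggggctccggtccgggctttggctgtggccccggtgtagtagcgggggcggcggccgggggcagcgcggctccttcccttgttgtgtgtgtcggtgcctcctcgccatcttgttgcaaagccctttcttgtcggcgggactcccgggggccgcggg
MXD1: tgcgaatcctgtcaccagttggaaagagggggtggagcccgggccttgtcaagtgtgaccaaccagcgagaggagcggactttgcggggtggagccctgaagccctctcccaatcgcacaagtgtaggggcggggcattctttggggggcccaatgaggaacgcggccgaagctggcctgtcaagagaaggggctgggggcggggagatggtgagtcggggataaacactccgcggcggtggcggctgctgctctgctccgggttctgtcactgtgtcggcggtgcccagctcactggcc
MXD3: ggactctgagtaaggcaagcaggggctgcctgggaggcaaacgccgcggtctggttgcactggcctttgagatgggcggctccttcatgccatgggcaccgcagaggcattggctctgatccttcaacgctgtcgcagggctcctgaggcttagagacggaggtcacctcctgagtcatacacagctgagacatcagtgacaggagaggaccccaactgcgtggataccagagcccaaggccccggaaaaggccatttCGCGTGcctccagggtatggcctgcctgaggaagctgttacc

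Partners, regulators and targets of the network were followed in 9 lists of textbook members, chosen with earlier results of these data known. Each gene was read at its brightest probe set. Over all genes 18.4% were higher and 13.2% lower, with a median log2 fold change of 0.03. Of 17 measured coactivators and MYC-binding cofactors 5 were higher and 2 lower (median 0.03), so 41.2% passed, against 31.6% of all genes. SMARCB1, a SWI/SNF subunit that binds MYC, rose by 0.47 with 3 of 4 probe sets higher and the other at −0.20, ZBTB17 (MIZ1), through which MYC represses genes, by 0.35 with 1 of 4, and the AAA+ helicase RUVBL2 by 0.31 with 3 of 4. WDR5, which anchors MYC on chromatin, fell by 0.35 on the log2 scale, and the acetyltransferase KAT2A fell by 0.20. KAT2A did not pass without any 1 array other than sh-PNO1 replicate 3 (adjusted p of up to 0.0854), and 4 cofactors rather than 7 passed without sh-Ctrl replicate 1 or without sh-Ctrl replicate 2.

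Co-repressors went both ways. Of 12 measured members of the SIN3 complex, which the MXD proteins and MNT recruit, 4 were higher and 3 lower (median −0.01). The share that passed was 58.3%, against 31.6% of all genes. SAP18 rose by 0.30 with 3 of 3 probe sets higher, BRMS1 by 0.24 and the scaffold SIN3B by 0.33, the last with 2 of 6. ARID4B fell by 0.45, SUDS3 by 0.33 and the histone-binding RBBP7 by 0.42 on the log2 scale. Of 8 measured members of PRC1.6, the Polycomb complex that MGA scaffolds, 3 were lower and none higher (median −0.09). The share that passed, 37.5%, was near the 31.6% of all genes. CBX3, a heterochromatin protein 1 family member, had 1172 ± 22.7 in sh-PNO1 and 2113 ± 24.4 in sh-Ctrl (SD, n = 3 each), a log2 fold change of −0.85 ± 0.04 SE, with 2 of 3 probe sets lower. RYBP fell by 0.43 with 4 of 4 probe sets lower and E2F6, a repressive E2F that pairs with MGA in this complex, by 0.38 with 5 of 5. E2F6 did not pass at that probe set without sh-PNO1 replicate 1, sh-PNO1 replicate 2, sh-Ctrl replicate 1 or sh-Ctrl replicate 2 (adjusted p of up to 0.0793).

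Of 17 measured regulators of MYC protein turnover 4 were higher and 6 lower (median −0.02), so 58.8% passed, against 31.6% of all genes. CIP2A, which shields MYC from the phosphatase PP2A, had 127 ± 7.19 in sh-PNO1 and 226 ± 4.91 in sh-Ctrl (SD, n = 3 each), a log2 fold change of −0.84 ± 0.05 SE with 2 of 2 probe sets lower. PPP2R5A, the B56 alpha subunit that directs PP2A to MYC, rose by 0.49 with 2 of 2, and SET, a PP2A inhibitor, fell by 0.31 with 2 of 2. The deubiquitinase USP37 fell by 0.77 with 3 of 5, the ubiquitin ligase subunit SKP2 rose by 0.65 on 1 of 2 probe sets, the other standing at −0.12, and the kinase PIM2 rose by 0.49. These are transcripts of enzymes, and MYC stability was not measured.

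Regulators of MYC transcription and messenger RNA included 4 lower and 2 higher of 16 measured (median 0.02). The share that passed, 37.5%, was near the 31.6% of all genes. FUBP1, which activates MYC through its far upstream element, fell by 0.61 on the log2 scale with 4 of 5 probe sets lower, and IGF2BP3, an RNA-binding protein that stabilises MYC messenger RNA, fell by 0.47 with 2 of 2. CTCF, the insulator protein, fell by 0.21. The Wnt effector TCF7L2 rose by 0.26 on 2 of 7 probe sets, which ranged down to −0.38, and with all averaged it stood at 0.03 (adjusted p = 0.593). IGF2BP2 rose by 0.22, but stood at 0.03 (adjusted p = 0.777) without probe sets of suffix _x_at or _s_at, which can match several transcripts; 3 of this list passed then, against 6.

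Of 38 measured genes that MYC induces 8 were higher, 5 lower and 25 did not pass, with a median log2 fold change of 0.001. The share that passed, 34.2%, was near the 31.6% of all genes. Among those higher were the transferrin receptor TFRC, by 0.57 with 2 of 3 probe sets, the spermidine synthase SRM, by 0.48 with 2 of 2, and RRP9, a U3 snoRNP protein, by 0.23. Among those lower were SLC7A5, which carries large neutral amino acids, by −0.87 on 1 of 2 probe sets, its partner SLC3A2, by −0.26 with 7 of 7, and CDCA7, by −0.68 with 2 of 2. When the probe sets of each gene were averaged, 17 of this list passed, 8 higher and 9 lower.

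Genes listed as repressed by MYC were mostly higher, 6 of 8 measured, with 1 lower (median 0.39). The share that passed was 87.5%, against 31.6% of all genes, of which 18.4% were higher. These 8 were chosen with earlier results of these data known, so the count is no test of MYC activity. CDKN2B, an inhibitor of CDK4 and CDK6, read 37.2 ± 4.84 in sh-PNO1 and 17.1 ± 0.74 in sh-Ctrl (SD, n = 3 each), a log2 fold change of 1.11 ± 0.09 SE with 2 of 3 probe sets higher. CDKN1A rose by 0.99 and GADD45A, a growth arrest gene, by 0.60; both are also induced in other stress responses. NDRG1 was the 1 that was lower (−0.18, 1 of 6 probe sets). It did not pass without sh-PNO1 replicate 1 or any 1 sh-Ctrl array (adjusted p of up to 0.0914), nor as the average of its probe sets (−0.04, adjusted p = 0.481). Without probe sets of suffix _x_at or _s_at 4 of this list passed, all higher.

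In the MLX branch 3 of 5 partners and targets were higher and none lower (median 0.22), so 60% passed, against 31.6% of all genes. ARRDC4, an arrestin family gene that MLXIP and MLX induce, had intensities of 193 ± 16.1 in sh-PNO1 and 87.8 ± 10.04 in sh-Ctrl (SD, n = 3 each), a log2 fold change of 1.14 ± 0.09 SE with 3 of 3 probe sets higher. The partners MLXIP (MondoA) and MLXIPL (ChREBP) rose by 0.25 and 0.22. MLXIPL lost its call without any 1 array other than sh-PNO1 replicate 2 (adjusted p of up to 0.128) and MLXIP without sh-PNO1 replicate 2 or 3 (up to 0.0599), so that only ARRDC4 passed without sh-PNO1 replicate 3. TXNIP, named after its values were seen as the other classical target, stood at 0.06 ± 0.08 SE on a dim brightest probe set (18.2 ± 1.42 in sh-PNO1 and 17.5 ± 1.53 in sh-Ctrl, SD, n = 3 each).

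Among 10 other bHLH-zipper factors 2 were higher and 1 lower (median 0.05). The share that passed, 30%, was near the 31.6% of all genes. SREBF2, the regulator of sterol synthesis, fell by 0.45 on 1 of 3 probe sets. The E-box factor USF1 rose by 0.21 and MITF by 0.25, but each failed to pass without any 1 array other than sh-PNO1 replicate 1 for USF1 and sh-PNO1 replicate 3 for MITF (adjusted p of up to 0.124 for USF1 and 0.15 for MITF), MITF also not with equal array medians (0.0511) or 16 added (0.0685), and 1 of the 10 rather than 3 passed without sh-PNO1 replicate 2 or without any 1 sh-Ctrl array.

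**Figure D4:**
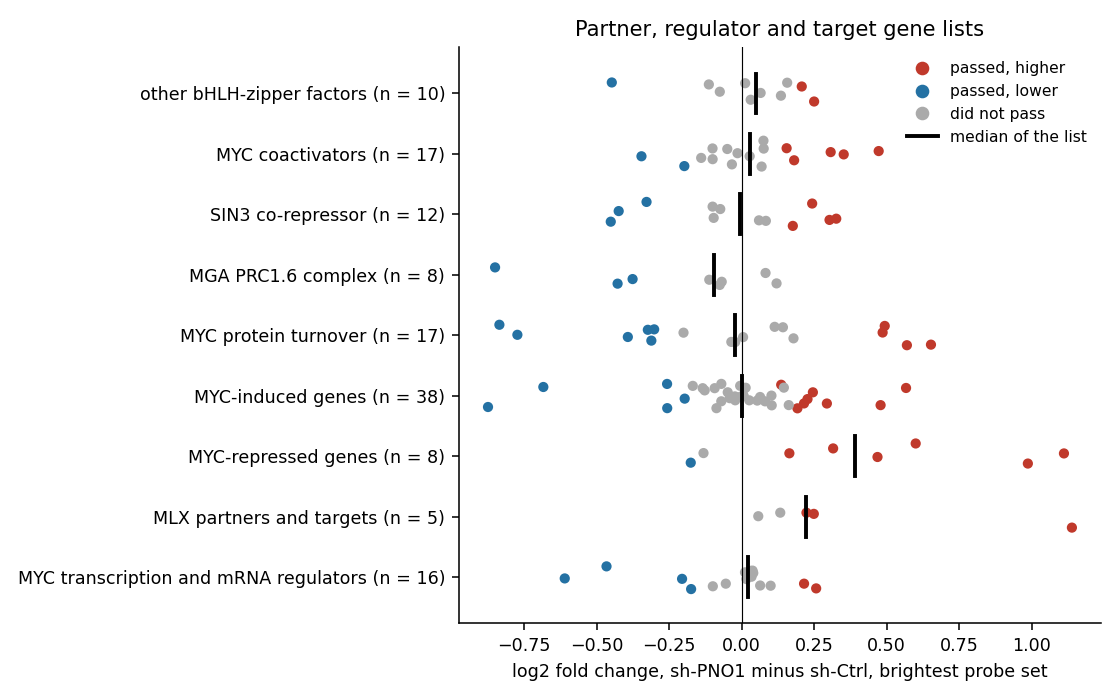
Log2 fold change (sh-PNO1 minus sh-Ctrl, horizontal axis) of each measured gene of the 9 lists at its brightest probe set, coloured by whether it passed and in which direction, with the median of the list as a black line. The medians lie within 0.1 of 0 except for the MYC-repressed genes (0.39) and the MLX partners and targets (0.22). All 9 lists were chosen with earlier results of these data known.

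The genes whose 6 array values lay nearest to those of MYC, after each gene's own mean was taken away, were PLIN2, L3MBTL2, EML6 and FARSB, at Euclidean distances of 0.04 to 0.06 on the log2 scale among 12691 genes compared. Their log2 fold changes were 0.09 to 0.14, and EML6 was the 1 that passed (adjusted p = 0.0473). That these lie near the value of MYC follows from how the genes were picked. With 6 arrays in 2 groups such likeness describes these arrays only.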

How the data were processed

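The deposited table holds linear intensities of 49395 probe sets on 6 arrays. They were made by the authors with RMA, per the submitters' processing notes; its version and settings are not given in the sources used. RMA normalises between arrays, so changes are relative to the other transcripts of an array. Groups came from the sample titles. The platform's table gave 44988 probe sets 1 symbol, 1832 several, and did not list 2473; 102 array controls were left out.

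The 49293 remaining probe sets, on the log2 scale, entered 1 linear model in limma 3.58.1 under R 4.3.3 (lmFit, eBayes; sh-PNO1 minus sh-Ctrl; no covariate). The Benjamini-Hochberg adjustment ran over all of them, and a probe set passed at an adjusted p under 0.05. A gene was read at its probe set with the highest mean. This fit was checked on simulated data with 200 changed probe sets. It recovered 71.5% of them at a log2 change of 0.5 and 95% at 1. Of its calls 2.72% and 4.52% were false. The simulation changed 200 of 49293 probe sets, whereas 13791 passed in these data, so its rates need not hold here. Log2 changes below 0.5 were not simulated.

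The genes and lists were chosen with earlier results of these data known. Text names all 9 genes, up to 3 increases and 3 decreases per list by adjusted p, and the 4 genes nearest to MYC above the 30th percentile of brightness. Alternatives were a replicate block, weighting of the arrays, a robust prior with a trend in the variance, a repeated quantile step, equal medians, log2(intensity + 16), no dimmest 30%, an adjusted p under 0.01, each array left out, 1 probe set per gene, averaged probe sets, no suffix _x_at or _s_at and, added after seeing the data, a background filter. List genes with no single-symbol probe set were not analysed here.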

Additional observations from a re-analysis of the deposited data

How the results depend on the processing

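Of 1342 recomputed values of single genes and probe sets 1265 kept their direction and side of the threshold, 63 no longer passed, 2 newly passed and 12 changed sign, all of them values that had not passed. With 1 array left out there were 10834 to 11888 changed probe sets (13791 with all), 15 to 18 of the network (19), 3 to 5 network genes (6), a PNO1 change of −2.35 to −2.32, and, of the lists, 4 to 7 coactivators (7), 1 to 3 other bHLH-zipper factors (3) and 1 to 2 MLX partners and targets (3). At an adjusted p under 0.01 there were 8666 changed probe sets, 13 of the network, and 3 network genes. Without probe sets of suffix _x_at or _s_at 8711 probe sets changed (fewer were tested), 4 MYC-repressed genes (7), 3 MYC transcription and mRNA regulators (6), and MGA stood at 0.020. The sign changes were all near 0. Array weights gave −0.0049 for a MAX probe set at 0.02 and −0.0087 for an MGA probe set at 0.03, repeated quantile normalisation −0.0019 for an MXD3 probe set at 0.01, and averaging 0.00077 for MNT. With 1 array left out the ranges were −0.0043 to 0.13 and −0.041 to 0.055 for the MAX probe sets at 0.06 and 0.02, −0.014 to 0.15 for the dim MXD1 probe set, −0.015 to 0.061 for the MXD3 probe set at 0.04, and −0.010 to 0.063 and −0.073 to 0.10 for the MGA probe sets at 0.02 and 0.03. The cause was not tested. Same-numbered arrays of the groups deviated together little (r = −0.04, 0.10 and −0.03 over probe sets). With 3 arrays per group these values cannot show whether the numbers pair the samples. With the replicate number as a block in limma, 18 network probe sets and 5 network genes passed. MLX at its brightest probe set (adjusted p = 0.0647) and MITF (adjusted p = 0.0841) then no longer passed. The filter at the median background probe set, chosen after seeing the data, left the network count at 19. All 39 network probe sets were brighter than that median, so the filter could remove none of them. Dim probe sets limit what can be read from MXD1 and from most MAX probe sets.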
